A study of Mus musculus with 2 samples.

Results

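Open chromatin at the genes of the mitogen-activated protein (MAP) kinase cascade was examined in regulatory T (Treg) cells, in 1 library of TKT cKO Treg cells and 1 library of WT Treg cells. The genes were taken by symbol, as Map4k, Map3k, Map2k or Mapk followed by a number. Peaks assigned to 38 such genes were found, 55 of 19680 peaks in the cKO list and 94 of 34440 peaks in the WT list. RefSeq lists 43 mouse genes with such symbols, and the 5 without an assigned peak were Map3k4, Map3k13, Map2k7, Mapk4 and Mapk10. The cKO cells came from Foxp3cre/+ TKTfl/fl females, in which Cre under the control of Foxp3 deletes Tkt (transketolase, of the pentose phosphate pathway). The WT cells came from Foxp3cre/+ females with wild-type Tkt, so Cre is carried by both groups. All mice were C57BL/6, aged 7 weeks and untreated, and are described as chimeric. With 1 Foxp3cre allele, females hold Treg cells with and without Cre, so the sort, from lymph node and spleen, took CD4+CD25+YFP+ cells, at 50000 per reaction. The labels do not say whether animals were pooled.

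MAP kinase cascades pass signals from receptors to the nucleus by sequential phosphorylation. MAP4 kinases sit near receptors, MAP3 kinases integrate stress, cytokine and antigen receptor inputs, MAP2 kinases (MEKs) are dual-specificity enzymes, and the MAP kinases ERK, JNK and p38 phosphorylate transcription factors such as those of the AP-1 family. In T cells the T cell receptor feeds ERK through Ras and Raf, whereas CD28, TNF family receptors and stress feed JNK and p38. Accessible chromatin was read by ATAC-seq, in which the Tn5 transposase inserts adapters into open DNA. A peak is a called region of dense insertion, which says that a site was accessible and not how much the gene was transcribed.

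The promoters that carried the strongest WT promoter peak of each tier are printed first, chosen by WT score alone. They are RefSeq promoter windows of 300 bases in GRCm38.p6 (mm10), from 250 bases before to 50 after the transcription start site (TSS), read 5′ to 3′ on the strand of the gene. Capitals mark CCGGAA, the core of an ETS factor motif, or GGGCGG, a GC box bound by Sp factors, on either strand.
Map4k2, chr19:6340910-6341209, plus strand: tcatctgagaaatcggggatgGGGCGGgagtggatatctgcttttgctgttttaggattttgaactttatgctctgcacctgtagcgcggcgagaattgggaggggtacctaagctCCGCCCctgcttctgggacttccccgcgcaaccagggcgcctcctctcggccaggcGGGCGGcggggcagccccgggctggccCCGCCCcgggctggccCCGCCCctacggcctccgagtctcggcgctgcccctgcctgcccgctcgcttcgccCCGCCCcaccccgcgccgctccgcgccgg
Map3k11, chr19:5688881-5689180, plus strand: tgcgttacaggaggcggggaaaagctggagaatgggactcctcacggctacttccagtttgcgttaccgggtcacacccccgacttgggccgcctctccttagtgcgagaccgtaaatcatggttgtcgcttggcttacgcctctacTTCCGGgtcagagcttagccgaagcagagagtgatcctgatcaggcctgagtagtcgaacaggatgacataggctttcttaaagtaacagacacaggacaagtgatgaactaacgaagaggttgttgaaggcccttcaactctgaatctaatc
Map2k1, chr9:64253556-64253855, minus strand: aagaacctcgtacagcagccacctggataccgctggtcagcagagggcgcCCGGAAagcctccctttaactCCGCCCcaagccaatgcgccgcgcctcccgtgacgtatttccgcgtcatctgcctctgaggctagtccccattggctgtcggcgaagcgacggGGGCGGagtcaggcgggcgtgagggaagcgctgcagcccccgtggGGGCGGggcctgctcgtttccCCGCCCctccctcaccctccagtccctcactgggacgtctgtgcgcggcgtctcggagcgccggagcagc
Mapk7, chr11:61494217-61494516, minus strand: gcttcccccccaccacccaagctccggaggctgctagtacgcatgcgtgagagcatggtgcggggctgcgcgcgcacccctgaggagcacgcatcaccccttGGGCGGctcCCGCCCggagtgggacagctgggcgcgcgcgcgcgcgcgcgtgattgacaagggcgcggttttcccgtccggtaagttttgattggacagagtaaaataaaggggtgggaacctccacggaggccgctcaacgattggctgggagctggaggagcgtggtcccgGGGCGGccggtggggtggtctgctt
The Map4k2 window holds 6 GC boxes and no ETS core, that of Map3k11 1 ETS core and no GC box, that of Map2k1 1 ETS core and 4 GC boxes, and that of Mapk7 3 GC boxes. A peak of each library overlapped all 4 windows. Over all genes, WT promoter peaks in the same score deciles as these 4 were overlapped by a cKO peak in 98.8 to 99.6% of cases. A second pair of windows is shown because a WT peak and no cKO peak overlapped them.
Map3k12, chr15:102510651-102510950, minus strand: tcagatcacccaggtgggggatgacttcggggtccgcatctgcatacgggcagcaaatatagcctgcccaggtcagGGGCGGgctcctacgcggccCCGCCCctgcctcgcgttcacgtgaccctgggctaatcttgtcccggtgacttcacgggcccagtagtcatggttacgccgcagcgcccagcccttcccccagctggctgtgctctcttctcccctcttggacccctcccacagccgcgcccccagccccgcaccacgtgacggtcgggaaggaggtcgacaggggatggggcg
Mapk6, chr9:75409310-75409609, minus strand: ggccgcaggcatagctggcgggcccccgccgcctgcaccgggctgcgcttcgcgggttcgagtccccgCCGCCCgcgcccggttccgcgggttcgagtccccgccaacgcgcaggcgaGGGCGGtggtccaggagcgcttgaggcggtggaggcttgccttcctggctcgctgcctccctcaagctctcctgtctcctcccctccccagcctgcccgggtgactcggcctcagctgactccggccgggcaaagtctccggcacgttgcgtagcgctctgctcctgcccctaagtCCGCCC
These windows hold 2 and 3 GC boxes and no ETS core. Both genes have another RefSeq start whose window was overlapped in both libraries.

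Each group has 1 library, so no difference between the groups could be checked against replicates, and p-values are not given. Read totals were not used here, sequencing depth is unknown, and a site without a peak may only have fallen below the caller's threshold. The cKO list is the shorter, so WT peaks without a cKO partner are frequent everywhere. Of 10 genes that mark Treg and CD4 T cells, 9 had a peak in each library, Foxp3, Cd4, Il2ra and Ctla4 among them, and Cd3g had none. Of 6 B cell markers 2 had cKO peaks (Cd79a and Ebf1) and 3 had WT peaks (Cd79b as well), with 2 and 6 peaks. None was at Ms4a1 or Pax5. Of 6 CD8 T and NK markers 3 had cKO peaks (Klrb1c, Cd8b1 and Gzma) and 2 had WT peaks (Klrb1c and Cd8b1), with 4 and 5 peaks. None was at Cd8a, Ncr1 or Klrd1. The strongest Klrb1c peak lay at percentile 85.1 of scores in the cKO list and 86.6 in the WT list. That of Foxp3 lay lower, at 51.0 in cKO and 66.1 in WT. Of 6 myeloid markers 3 had cKO peaks (Adgre1, Cebpa and Lyz2) and 3 had WT peaks (Adgre1, Cebpa and Spi1), 2 of them the same genes. None was at Itgam or Csf1r. The Adgre1 peak lay at percentile 65.0 in cKO and 84.5 in WT. The part of other cells in the results was not tested. Tkt had 1 promoter peak in each library, at the 67.7th percentile of scores in the cKO list and the 87.6th in the WT list, which does not check the deletion.

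Every cKO peak of the cascade lay on a WT peak, and a majority of the WT peaks lay on a cKO peak, which is close to what the whole lists show. A WT peak overlapped 55 of the 55 cKO member peaks by at least 1 bp (100%, Wilson 95% interval 93.5 to 100), against 97.6% of all cKO peaks. Of the 94 WT member peaks 57 lay on a cKO peak (60.6%, 50.5 to 69.9), against 56.1% of all WT peaks. The interval holds the value for the whole list. Intervals cover counting error only, and peaks of 1 gene are not independent. WT peaks of the same annotation class (promoter, intron, other) and the same decile of the list by score were overlapped at 57.4% on average, also within the interval. No member had peaks in cKO alone, 28 had peaks in both libraries and 10 in WT alone. Against the 19680 strongest WT peaks, 1 member had peaks in cKO alone and 2 in WT alone. Of these WT peaks, 85.2% of member peaks, and 83.0% of all, were overlapped. Dropping weak WT peaks lowers the WT-alone count by construction, and what lies behind that count was not tested. With the full lists, 28 of 38 members with a WT peak also had a cKO peak, and over all gene symbols with a WT peak 71.8% did. All WT peaks were overlapped in 17 genes, some in 12 and none in 9, a split that was not counted over all genes.

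Several genes of the cascade had more than 1 peak. A member with any peak had a median of 1 peak in the cKO list and 2 in the WT list, and both medians over all symbols were 1. In the WT list 20 of 38 members (52.6%) had 2 or more peaks, against 38.5% of all symbols with a peak. In the cKO list it was 11 of 28 (39.3%), against 23.7%. The 6 of 38 members with 5 or more WT peaks were Map4k4, Map3k5, Map3k8, Map3k1, Map3k3 and Mapk9. Over all symbols with a WT peak it was 988 of 19215 (5.14%). Longer genes can hold more peaks, and gene length was not adjusted for.

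Promoter peaks of the cascade were overlapped more often than its intron peaks, as in the whole WT list. By the authors' classes, in which a promoter reaches 3 kb from the TSS, the cKO list held 26 promoter, 17 intron and 12 other member peaks, and the WT list held 39, 34 and 21. Of 39 WT promoter peaks 28 lay on a cKO peak (71.8%, 56.2 to 83.5), against 74.3% over all genes. For introns it was 17 of 34 (50.0%, 34.1 to 65.9), against 39.8%, and for other peaks 12 of 21 (57.1%, 36.5 to 75.5), against 42.8%. All 3 intervals hold the value over all genes. The split within promoters was wider. WT promoter peaks that span the assigned TSS were overlapped in 21 of 25 cases (84.0%, 65.3 to 93.6), and those beside it in 7 of 14 (50.0%, 26.8 to 73.2), where the whole list gave 86.0% and 45.0%. Peaks beside the TSS also ranked lower, with a median percentile of 35.9 against 85.4 for those spanning it. Intron 1 peaks were overlapped in 8 of 17 cases (47.1%, 26.2 to 69.0), where the whole list gave 44.5%. Later intron peaks were overlapped in 9 of 17 (52.9%, 31.0 to 73.8), where the whole list gave 37.2%. Both intervals hold the value of the whole list.

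Overlapped WT member peaks ranked above unmatched ones by score. The score is the authors', and is given as a percentile within its list, where 100 is the highest. Overlapped WT member peaks had a median percentile of 72.0 and unmatched ones 25.1. By quintiles of the WT list from low to high score, 2 of 16, 8 of 23, 9 of 16, 16 of 17 and 22 of 22 member peaks were overlapped. Over all WT peaks these quintiles gave 10.3%, 26.5%, 55.2%, 89.2% and 99.2%. Of the 37 unmatched peaks 7 lay above the middle of the WT list, and the highest lay at percentile 66.8. They were also narrower, the median widths being 681 bp for unmatched and 1263 bp for overlapped peaks, where all WT peaks gave 662 and 1213 bp. The nearest cKO peak was within 1 kb of 5 of the 37 and more than 10 kb away from 17. These distances were not counted over all unmatched WT peaks.

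**Figure D1:**
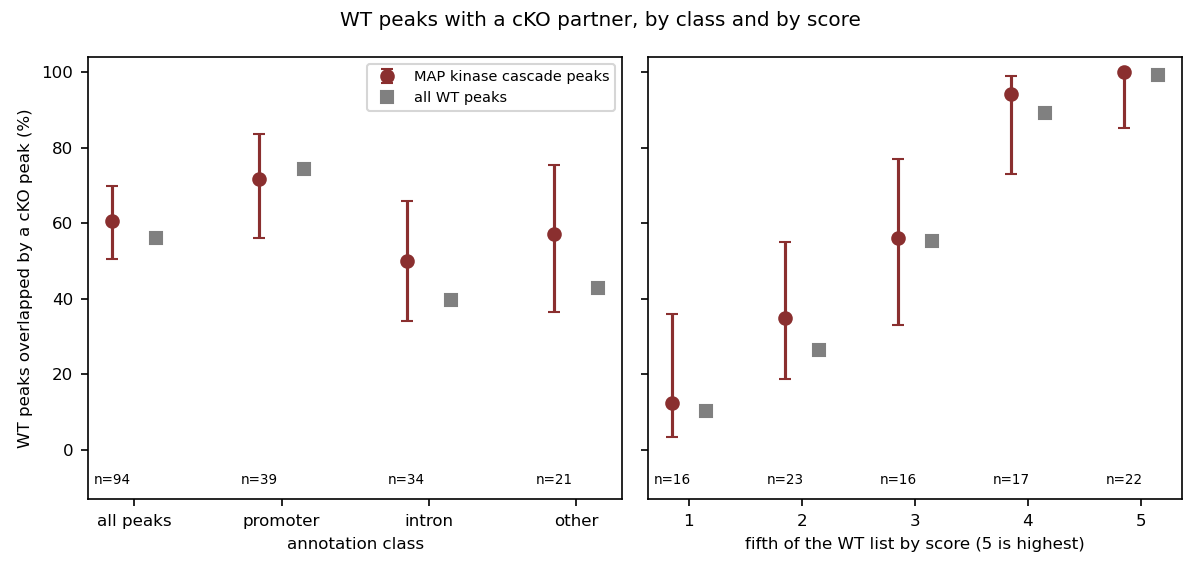
Percent of WT peaks with a cKO partner (y axis) for MAP kinase cascade peaks (circles, Wilson 95% intervals) and all WT peaks (squares), by annotation class (left) and by quintile of the WT list by score (right). The share of cascade peaks goes with score, with 2 of 16 in the lowest quintile and 22 of 22 in the highest, and each interval holds the square beside it.

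Where both libraries had a peak, the peaks coincided closely. In 55 pairs that matched 1 to 1, the centres were a median of 84.5 bp apart, against 73.5 bp over 18926 pairs of all genes. The cKO peak was the narrower of the pair in 44 of 55 cases, and in 85.3% of the pairs of all genes, with median widths of 1003 bp in cKO and 1268 bp in WT.

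**Figure D2:**
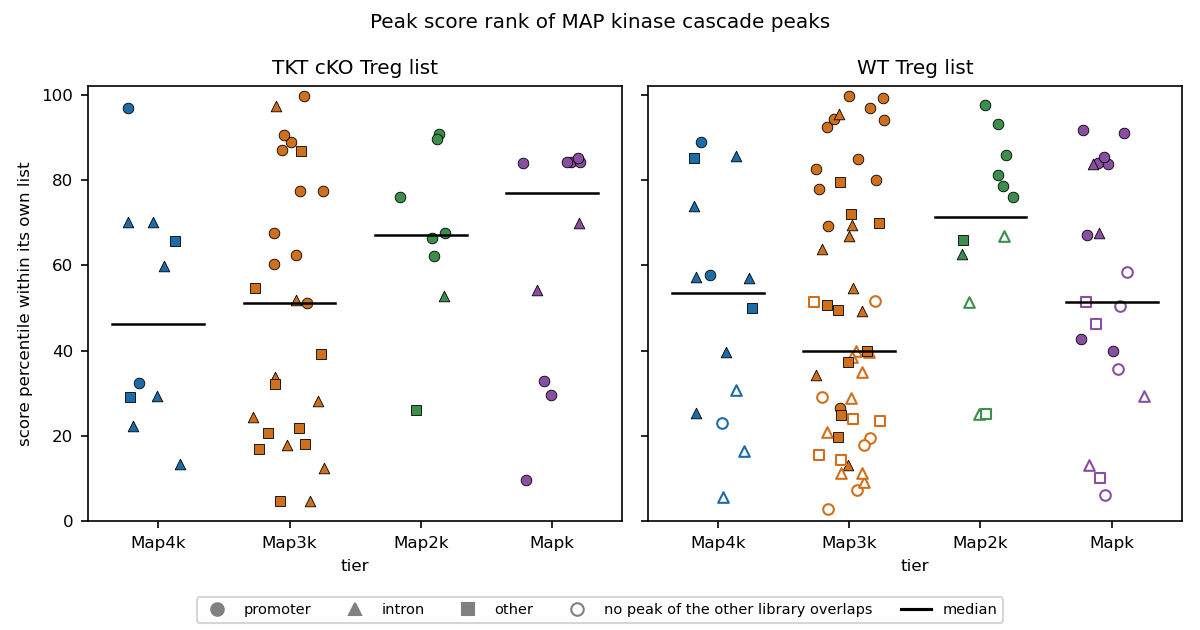
Score percentile of each cascade peak within its own list (y axis) by tier (x axis), in the TKT cKO list (left) and the WT list (right). Circles are promoter, triangles intron and squares other peaks, open symbols are peaks that no peak of the other library overlaps, and black bars are medians. Open symbols are absent from the cKO panel and lie at or below percentile 66.8 in the WT panel.

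Among the MAP4 kinases, open sites concentrated in 1 gene. This tier had 10 cKO peaks in 3 genes and 14 WT peaks in 5 genes, and 10 of the 14 WT peaks were overlapped (71.4%, 45.4 to 88.3), where peaks of the same class and score decile gave 55.0%. Map4k4, a kinase of the JNK and TNF pathways, had 8 cKO peaks and 10 WT peaks, the most of any member. Of these, 6 cKO peaks and 8 WT peaks lay in intron 2 of the 30 introns of the gene. The strongest was centred 35.2 kb from the TSS, at chr1:39936080-39936811 in cKO (percentile 70.2) and chr1:39935875-39936918 in WT (percentile 85.6). The unmatched WT peaks, centred 40.4 and 43.4 kb from the TSS, ranked at percentiles 30.8 and 5.77 and were 458 and 392 bp wide. The Map4k4 promoter peak ranked below its strongest intron peak in both libraries, at percentile 32.5 in cKO and 57.8 in WT. Without Map4k4, 2 of 4 WT peaks of the tier were overlapped.

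Map4k1 (HPK1), a kinase of blood cells that restrains T cell receptor signalling, had 1 assigned peak in each library. It lay in exon 28 of 32, 17815 bp into the gene in cKO and 17728 bp in WT, at percentiles 65.7 and 85.2. Map4k2 had 1 promoter peak in each, at percentile 96.8 in cKO (chr19:6339973-6341103) and 88.8 in WT (chr19:6339942-6341759). Map4k3 (GLK), which activates protein kinase C theta in T cells, had a WT peak alone, at its promoter (chr17:80727139-80727794) and at percentile 23.1. Map4k5 also had a WT peak alone, in intron 1 (chr12:69877885-69878800) and at percentile 16.5. WT peaks of the same class and score decile were overlapped in 25.0% and 12.9% of cases.

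The MAP3 kinases formed the largest tier, with 27 cKO peaks in 11 genes and 49 WT peaks in 16 genes. Of the WT peaks 29 were overlapped (59.2%, 45.2 to 71.8), and peaks of the same class and score decile gave 51.2%. The strongest peak of the cascade in either list was at the promoter of Map3k11 (MLK3), at percentile 99.7 in cKO (chr19:5688443-5689904) and 99.6 in WT (chr19:5688409-5690015). The promoters of Map3k2, Map3k3, Map3k7 and Map3k10 lay between percentiles 77.4 and 90.6 in cKO and between 92.4 and 96.8 in WT. Map3k7 encodes TAK1, which links TNF, Toll-like and antigen receptors to JNK, p38 and NF-kappaB. Its other peaks, 1 intergenic and 1 in intron 1, were also called in both libraries. They ranked at percentiles 4.8 and 4.84 in cKO, and 39.9 and 13.1 in WT.

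Map3k1 (MEKK1), an activator of JNK with a ubiquitin ligase domain, had 5 cKO and 7 WT peaks. An intron 1 peak, centred 12.1 kb into the gene in cKO and 12.2 kb in WT, was its strongest, above the promoter. It lay at chr13:111796426-111797330 in cKO (percentile 97.3) and chr13:111796194-111797465 in WT (percentile 95.4). Its peak 1.4 kb into the gene ranked at 86.9 in cKO and 85.0 in WT. The unmatched WT peaks were a narrow one just before the TSS (percentile 7.24) and one in intron 1 (percentile 9.18).

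Map3k5 (ASK1), the redox-sensitive kinase held inactive by thioredoxin, had 5 cKO and 8 WT peaks, and 6 of the WT peaks were overlapped. Peaks centred 28.1, 57.9, 65.5 and 71.3 kb into the gene in cKO, in introns 1 and 2 and at exon 2, had WT partners. The unmatched WT peaks, 5.0 and 34.1 kb into the gene, ranked at percentiles 28.8 and 20.9. The exon 2 peak, chr10:19999297-20000646 in cKO and chr10:19999304-20000812 in WT, ranked at percentiles 54.7 and 72.0. At the promoter 1 cKO peak, chr10:19933603-19934884, overlapped 2 WT peaks, which end at 19934257 and begin at 19934675. Its relative Map3k6 (ASK2) had a promoter peak and an exon peak in each library, all overlapped, with the promoter at percentile 51.1 in cKO and 77.8 in WT. Map3k15 (ASK3) had 2 WT peaks and no cKO peak, at percentiles 11.3 (chrX:159963127-159963496) and 17.8 (its promoter, chrX:159987734-159988436). The first lies in an intron of Sh3kbp1, so its assignment to Map3k15 follows distance alone.

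Map3k8 (TPL2), the MAP3 kinase that drives ERK downstream of TNF and Toll-like receptors, had 5 cKO and 8 WT peaks. Both libraries had a promoter peak, at percentile 60.2 in cKO and 79.9 in WT. Both also had 4 matched intergenic peaks past the end of the gene, centred 38.7, 49.6, 57.5 and 74.3 kb from the TSS in cKO. The strongest, 57.5 kb away in cKO and 57.6 kb in WT, ranked at 86.7 in cKO and 79.5 in WT. The unmatched WT peaks ranked at 14.3, 38.6 and 2.85. The intergenic sites are tied to Map3k8 by nearest TSS alone.

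**Figure D3:**
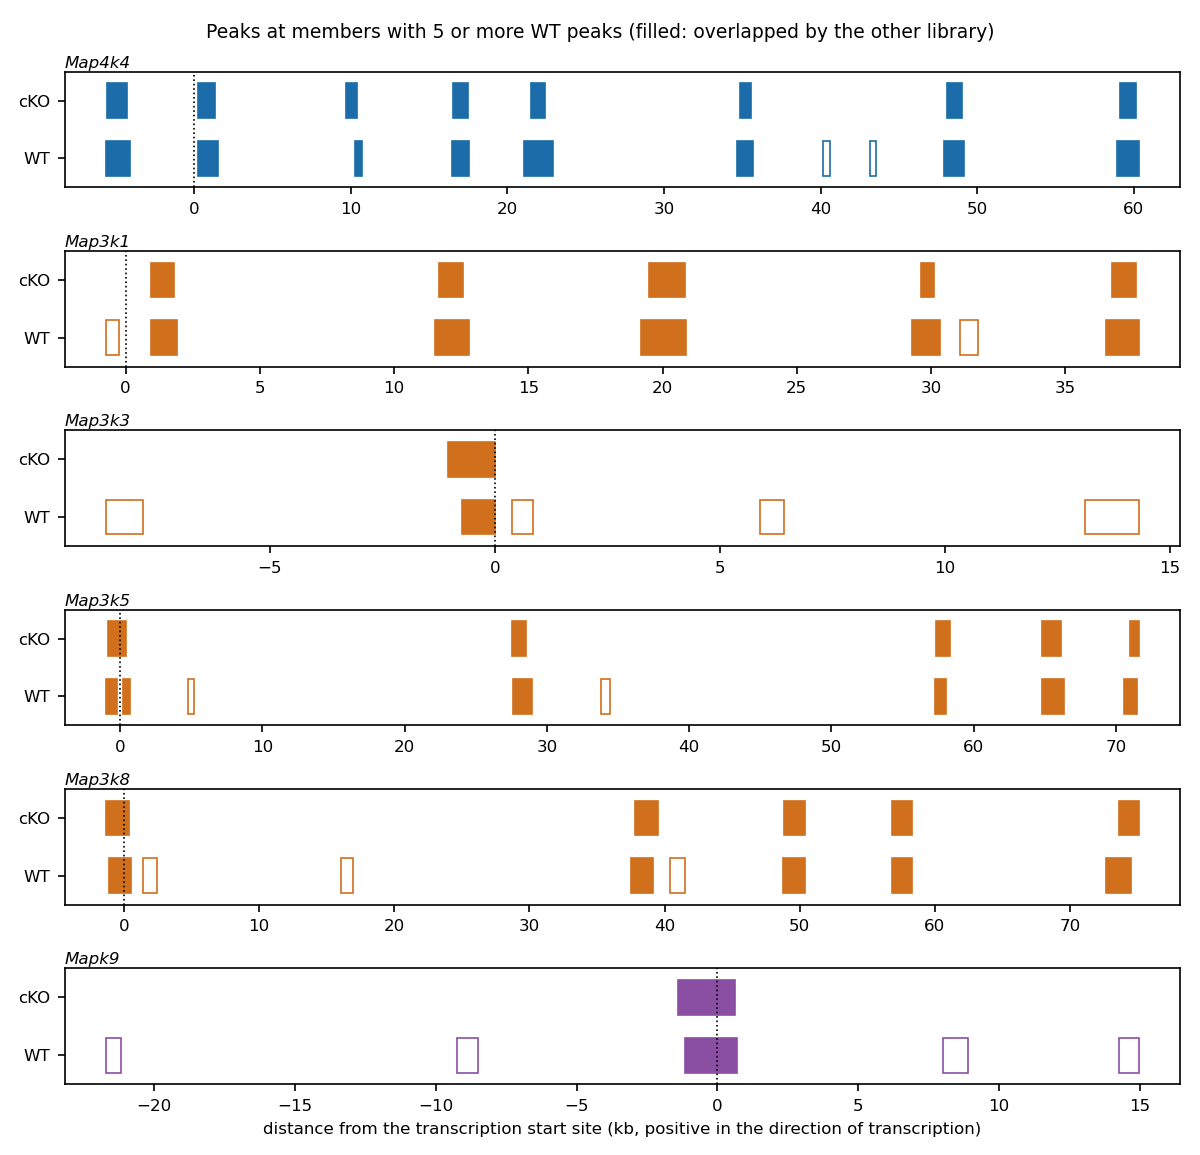
Peaks at the 6 members with 5 or more WT peaks, by distance from the TSS in kb (x axis, positive in the direction of transcription), with TKT cKO Treg above WT Treg in each panel. Filled boxes are overlapped by the other library, open boxes are not, and box width is peak width. At Map3k3 and Mapk9 1 of 5 WT peaks is filled, and at Map4k4 8 of 10.

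At Map3k3 (MEKK3) the peak at the TSS was the 1 overlapped among 5 WT peaks. It ranked at percentile 90.6 in cKO and 96.8 in WT. The unmatched ones included a second promoter peak (chr11:106084995-106085450, percentile 19.6) and an intergenic peak 7834 bp before the TSS (chr11:106075970-106076779, percentile 51.4), where 59.0% of WT peaks of the same class and score decile were overlapped. Map3k2 (MEKK2), its close relative, shared its promoter peak and not its intron 2 peak (29001 bp from its TSS, near the 40th percentile). Map3k20 (ZAK), a sensor of stalled ribosomes, had 1 peak in each library, 2641 bp before its TSS in cKO and 2541 bp in WT, at percentiles 67.5 and 69.2. Map3k19 had 2 cKO peaks, at percentiles 21.9 and 32.1, and 4 WT peaks, of which 2 were overlapped. Map3k14 (NIK), the kinase of non-canonical NF-kappaB signalling, Map3k9 (MLK1) and Map3k21 (MLK4) had 1 WT peak each and no assigned cKO peak. These were an intron 1 peak of Map3k14 (chr11:103262387-103262793, percentile 39.6), a promoter peak of Map3k9 (chr12:81780014-81780581, percentile 29.1) and an intergenic peak 39728 bp from the TSS of Map3k21 (chr8:125950178-125950750, percentile 23.5). Map3k12 (DLK) had 2 WT promoter peaks. The one at percentile 99.1 was overlapped by a cKO peak that the authors assigned to the neighbouring Tarbp2, and the other, chr15:102510301-102511401 at percentile 51.7, had no partner within 5681 bp.

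The MAP2 kinases were the tier with a promoter peak called in both libraries at each of its genes with a peak. All 6 such genes had 1 promoter peak in each library and all 6 pairs overlapped, whereas over all gene symbols with a WT promoter peak 77.0% also had one in cKO. In the score deciles of these 6 WT peaks between 95.8 and 99.6% of promoter peaks were overlapped. Over all classes, 8 of the 12 WT peaks of the tier were overlapped (66.7%, 39.1 to 86.2). For this tier, peaks of the same class and score decile gave 77.5%. Map2k1 and Map2k2 (MEK1 and MEK2), which phosphorylate ERK, ranked highest. Map2k1 lay at percentile 90.7 in cKO (chr9:64252923-64254116) and 97.5 in WT (chr9:64252739-64254150), and Map2k2 at 89.6 in cKO and 93.0 in WT. Map2k3 and Map2k6, the activators of p38, lay at 75.9 and 62.1 in cKO, against 75.9 and 78.5 in WT. Map2k4, which activates JNK, lay at 67.6 in cKO and 85.8 in WT. Map2k5, the activator of ERK5, lay at 66.4 in cKO and 81.2 in WT.

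Outside their promoters the MAP2 kinases had 2 cKO peaks and 6 WT peaks. The intergenic peak of Map2k4, 5841 bp before its TSS in cKO and 6122 bp in WT, and the intron 12 peak of Map2k5 were called in both libraries. Unmatched were an intron 1 peak of Map2k3 and 3 peaks of Map2k6 at percentiles 25.1, 25.1 and 51.3. The Map2k3 peak, chr11:60935242-60935794, had the highest score of all unmatched WT peaks of the cascade, at percentile 66.8, in a group where 79.8% were overlapped. It was 553 bp wide, and the nearest cKO peak was 2434 bp away.

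Of the terminal kinases, 8 had peaks in cKO and 11 in WT, with 10 and 19 peaks. Of the 19 WT peaks 10 lay on a cKO peak (52.6%, 31.7 to 72.7), and WT peaks of the same class and score decile gave 62.5%. Mapk3 (ERK1) had no cKO peak and 2 WT peaks. They were a promoter peak at chr7:126759173-126760160 and an intergenic peak at chr7:126754611-126755237, at percentiles 50.4 and 51.5. No cKO peak lay within 16551 bp of the promoter peak. In its class and score decile 69.2% of WT peaks were overlapped. Mapk7 (ERK5) had a promoter peak at percentile 84.3 in cKO and 91.6 in WT. Mapk6 (ERK3) had an intron 1 peak in both libraries, and its promoter peak was called in WT alone (chr9:75408636-75409407, percentile 35.7), 365 bp from a cKO peak.

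Among the JNK and p38 genes, Mapk8, Mapk9, Mapk14, Mapk11 and Mapk12 had promoter peaks in both libraries. Mapk8 (JNK1) lay at percentile 84.0 in cKO and 83.7 in WT, and Mapk9 (JNK2) at 85.2 in cKO and 85.4 in WT. Mapk9 had 4 further WT peaks, none overlapped. These included a promoter-class peak of a second transcript, chr11:49854772-49855646 at percentile 58.4, and 2 peaks before the TSS, in an intron of Gfpt2 and in a 3′ UTR. Mapk14 (p38 alpha) had a promoter peak at percentile 84.1 in cKO and 91.1 in WT, and an intron 1 peak at 70.0 in cKO and 83.8 in WT. Mapk11 (p38 beta) had 2 promoter-class peaks in each library, at percentiles 29.6 and 32.9 in cKO, against 67.2 and 42.7 in WT. Mapk12 (p38 gamma) had 1, at 9.75 in cKO and 39.8 in WT. Mapk13 (p38 delta) and Mapk15 had 1 WT peak each and no cKO peak. They were the Mapk13 promoter (chr17:28769566-28770164, percentile 6.26) and exon 10 of Mapk15 (chr15:75997887-75998855, percentile 10.1), where 6.97% and 11.9% of WT peaks of the same class and score decile were overlapped. Percentiles from lists of unequal length are set side by side as a description and cannot show whether accessibility changed.

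Counts by assigned symbol left out some open promoters of the cascade, since each peak carries 1 symbol. Any peak over a RefSeq promoter window was therefore also counted, whatever its symbol, for the 34 of the 43 genes with a window, which include 30 of the 38 with an assigned peak. Among genes without a window were Map4k4, Map3k2, Map3k8, Map3k15, Map3k19, Mapk3, Mapk4 and Mapk15. A cKO peak overlapped a window of 27 of the 34 genes (79.4%) and a WT peak that of 26 (76.5%), against 44.9% and 51.2% of 17492 protein-coding genes. For 8 of the 27 the cKO peak carried another symbol. The Map4k1 window lay under an Eif3k peak at percentile 99.8 in cKO (chr7:28981782-28982898) and 99.5 in WT (chr7:28981607-28983275). Map2k7, the second activator of JNK, had no assigned peak, but its window lay under a peak given to Gm49320, at percentile 91.0 in cKO and 97.9 in WT. The window of Map3k4 (MEKK4), a partner of the GADD45 proteins, lay likewise under a peak of 4732491K20Rik, at 60.5 in cKO and 75.4 in WT. Of the 10 members with assigned peaks in WT alone, Map4k5, Map3k9, Map3k12 and Map3k14 had a window overlapped by a cKO peak of another symbol. For Map3k14 the peak ranked at 86.3 in cKO and 93.8 in WT. The last of the 8 genes was Mapk6, which had assigned peaks in both libraries. A Mapk6 window lay under a peak of 4933433G15Rik at 74.0 in cKO and 83.2 in WT.

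By windows, 25 genes were open in both libraries, 2 in cKO alone, 1 in WT alone and 6 in neither. With symbols and the promoter class, over all 43 genes, the counts were 25 in both, 0 in cKO alone and 7 in WT alone. Thus 25 of 32 members with a WT promoter peak also had one in cKO. Over all gene symbols with a WT promoter peak 77.0% did. Of the 7 in WT alone, Map3k15 and Mapk3 have no window, so the counts by symbol and by window do not cover the same genes. The cKO genes were Map3k5 and Map3k6, where the WT peaks lay beside the window, and the WT gene was Map3k1, with its narrow peak at percentile 7.24. The 6 in neither were Map4k3, Map3k13, Map3k20, Map3k21, Mapk10 and Mapk13. Mapk10 encodes JNK3, known mainly from neurons.

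CpG counts of the windows were higher for the cascade than over all genes, and closer to all genes once windows with a cKO peak were compared. The 46 windows of the 34 genes had a median of 22.5 CpG dinucleotides, against 13.0 in 21263 protein-coding windows. Those overlapped by a cKO peak had 26.5, against 22.0 over all genes, and those overlapped in neither library had 6.0, against 4.0. A GC box was present for 25 of 34 genes (73.5%), against 49.2% of protein-coding genes, and the ETS core for 11 (32.4%), against 20.9%. Among genes with a window overlapped by a cKO peak the shares were 74.1% and 71.3% for the GC box, and 37.0% and 35.5% for the ETS core, in the cascade and over all genes. The CRE (TGACGTCA) was found at Mapk10 alone, 1 of 34 genes (2.94%), against 2.54% of protein-coding genes. The AP-1 site (TGACTCA or TGAGTCA) was found at Map3k10 alone, also 2.94%, against 5.4%. These motifs were searched on both strands, and a GC box can overlap its neighbour in GC-rich windows.

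Genes of the pathway outside the 4 tiers mostly had peaks in both libraries, as did 71.8% of all symbols with a WT peak. Of the genes with a WT peak, a cKO peak was also present at 15 of 16 Ras and Raf inputs. For Ste20 and related kinases under other symbols it was 10 of 10, and for scaffolds 8 of 10. Downstream kinases gave 10 of 10 and nuclear targets 11 of 12. In this order the lists held 17, 10, 12, 11 and 12 genes. In the same order, cKO peaks overlapped 30 of 48, 23 of 30, 13 of 23, 17 of 22 and 18 of 30 WT peaks. These are 62.5%, 76.7%, 56.5%, 77.3% and 60%, and WT peaks of the same class and score decile gave 57.8%, 62.8%, 63.8%, 70.7% and 61.1%. Each list's Wilson interval, from 36.8 to 89.9% at the extremes, holds the second value. Among Ras inputs, Rasgrp1, the diacylglycerol-dependent Ras activator of T cells, had 3 cKO and 7 WT peaks, and Rasa3 and Rasa2, which switch Ras off, had 5 and 4 cKO peaks and 6 WT peaks each. Sos1, another Ras exchange factor, had 2 cKO peaks and 6 WT peaks.

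Stk10 had 8 peaks in each library and Stk4 (MST1) 4 in cKO and 6 in WT. The ERK scaffold Ksr1 had 4 cKO and 7 WT peaks, and Iqgap1 2 and 5. Ksr2 and Mapk8ip2 had 1 WT peak each and no cKO peak, and Lamtor3 had 1 cKO peak, at percentile 5.43, and no WT peak. Of the kinases below the MAP kinases, Rps6ka3 (RSK2) had 3 cKO and 5 WT peaks, Rps6ka2 (RSK3) 2 and 3, and Rps6ka1 (RSK1) 3 in each, with the strongest at percentile 92.8 in cKO and 99.4 in WT. Mapkapk3, a target of p38, had 2 in each. Among nuclear targets Elk3 had 4 cKO and 9 WT peaks, Mef2d 3 and 5, and Mef2c 0 and 3, the strongest of these at percentile 42.4.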

How the data were processed

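ATAC-seq peak lists of 1 TKT cKO Treg and 1 WT Treg library were used. The submitters' processing notes name BWA, FastQC, MACS2 and Trimmomatic, and the build mm10. Their versions and settings, any duplicate removal or Tn5 shift, and how peaks were annotated were not given in the sources used here. Peak lists are separate for the 2 libraries. Each deposited list gives position, width, a score, a class, 1 gene symbol and the distance to its TSS in bp. The score, deposited by the authors, has no stated meaning and was only ranked within its list. Coordinates count from 1.

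Members were chosen by symbol, and members and lists were chosen with earlier results of these data known. Peaks overlapping by at least 1 bp counted as partners. Against bedtools 2.31.1, the overlaps differed at 0 of 19680 cKO and 0 of 34440 WT peaks. Shares carry Wilson 95% intervals (SciPy 1.17.1). The like-peak share averages, over member peaks, the overlapped share of all WT peaks of the same class (3) and score decile (10 bins). RefSeq gene names, promoter windows and sequences (GRCm38.p6, the same coordinates as mm10) matched 43 symbols of the family (names) and 34 of them (windows).

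Values were given by a fixed rule to the members with most WT peaks in each tier (3, ties kept), to the strongest WT peak of each tier, to members with peaks or promoter peaks in 1 library and to the 5 strongest unmatched WT peaks. In the other lists it took the 2 genes with most WT peaks (ties kept) and those with no cKO peak. Some genes that the rule takes are not reported here. Nearly every other member is named, and other genes, such as Lamtor3 and Mapkapk3, were named after their values were seen. Alternatives changed the overlap, score, width, list length, promoter limit and membership. Activation loops, though planned, were not compared, because no protein sequences were used here.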

Additional observations from a re-analysis of the deposited data

How the results depend on the processing

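No paired analysis was possible because there is 1 library for either group, which also leaves none to drop. Of 92 alternative values, 75 stayed within the interval of the reported share, 1.5 times the reported count or 10 points of the reported median percentile. With lists of equal numbers, obtained by dropping the weakest WT peaks, the cKO member share was 81.8% and the WT member share 85.2%, and over all peaks both shares were 83.0%. Among WT peaks that of Map3k was 91.7%, of Map4k 100%, of promoter peaks 89.3% and of intron peaks 86.7%. Members with a peak in cKO alone then numbered 1 and in WT alone 2, and with a promoter peak in cKO alone 1 and in WT alone 2. With centres required within 250 bp, the cKO member share was 81.8%, the WT member share 48.9% (all WT peaks 49.6%) and the Map3k share 40.8%. Above the median scores, members in WT alone numbered 3, and by promoter peak 4. With RefSeq windows, which cover 34 of the 43 genes and were chosen after seeing the data as was the limit of 10 kb from the TSS, genes open in cKO alone numbered 2 and in WT alone 1. These settings keep fewer peaks or genes, or ask for closer partners, by construction. An overlap of 50% of the peak, wide WT peaks, promoters within 1 kb, wider membership, ranks within class, the 10 kb limit and leaving out Map4k4 kept the reported values within those limits. Depth is unknown, and how it bears on missing peaks was not tested.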
